A study of Homo sapiens with 7 samples.

Results

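The 10 genes described here encode ATP-dependent chromatin remodellers or their large DNA-binding partners. They are the SWI/SNF subunits ARID1A, ARID1B and ARID2, the SWI/SNF ATPases SMARCA4 and SMARCA2, and the chromodomain helicases CHD1, CHD3, CHD4, CHD7 and CHD8. They were taken from a list of symbols that was chosen with earlier results of these data known. The 10 make up part of the 13566 Ensembl genes that had a peak in any list, and the contrasts with all genes below are descriptions. The study mapped N6-methyladenosine (m6A), a methyl mark within mRNA, in HEK-293T, an established line derived from human embryonic kidney. It used antibody capture (MeRIP) and chemical labelling (m6A-ORL). Both MeRIP libraries, replicates 1 and 2, were captured from fragmented polyA RNA with an anti-m6A antibody. The m6A-ORL libraries were made by treating RNA fragments in turn with NO/O2, TDO and probe BA, followed by streptavidin capture and DTT release. Their replicate 1 is labelled total RNA and their replicate 2 polyA RNA, so RNA type and replicate cannot be told apart within the method. The protocol text that all samples share describes oligo(dT) selection, which goes against the total RNA label, so "total-RNA" below names the library by its label only. Each of these 4 libraries has 1 peak list, and nothing says whether the libraries came from separate cultures. The 3 input samples, 1 for MeRIP and 2 for m6A-ORL, were not analysed here.

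SWI/SNF complexes use ATP to slide or eject nucleosomes, and the alternative ARID subunits mark different forms of the complex: ARID1A or ARID1B in canonical BAF, and ARID2 in PBAF. SMARCA4 (BRG1) and SMARCA2 (BRM) are its mutually exclusive motor subunits. The CHD proteins carry paired chromodomains beside the same kind of motor, and CHD3 and CHD4 are the ATPases of the histone deacetylase complex NuRD. In mRNA, m6A is written during transcription by the METTL3 and METTL14 complex, lies mostly near stop codons and in long internal exons, and affects mRNA decay and translation.

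The lists held 20760 and 20216 peaks for MeRIP, 11022 for total-RNA m6A-ORL and 7661 for polyA m6A-ORL. The files give no read depth, and precision rests on how many peaks each list holds. They list peaks and no expression levels, so a gene without a peak is only unlisted. Of 5 genes listed as HEK-293T markers, IRS4, PAX2 and VIM had a named peak, and LIN28B and SOX11 had none. None of 8 markers of liver, blood, muscle or islet cells had a named peak, although 1 peak under another ID lay in the span of INS, the islet marker.

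Promoter windows were found for 8 of the genes, 13 windows in all. In 6 of these genes a peak reached a window around a RefSeq start site. The share of all RefSeq windows reached by a peak is not given here. The 4 windows shown, of SMARCA4, CHD8, CHD4 and CHD3, hold peaks of different sets of libraries. The other two, of ARID1A and ARID1B, lie at wide MeRIP peaks described later and are not printed. Each runs from 250 nt before the start site to 30 nt after it, and capitals mark bases inside a peak of that gene in any list. Sequences are from RefSeq (GRCh38.p14; the peaks are on hg38), read 5′ to 3′ on the transcribed strand: SMARCA4 at chr19:10960780-10961059 (plus strand), CHD8 at chr14:21437246-21437525 (minus), CHD4 at chr12:6606422-6606701 (minus) and CHD3 at chr17:7888539-7888818 (plus).
SMARCA4: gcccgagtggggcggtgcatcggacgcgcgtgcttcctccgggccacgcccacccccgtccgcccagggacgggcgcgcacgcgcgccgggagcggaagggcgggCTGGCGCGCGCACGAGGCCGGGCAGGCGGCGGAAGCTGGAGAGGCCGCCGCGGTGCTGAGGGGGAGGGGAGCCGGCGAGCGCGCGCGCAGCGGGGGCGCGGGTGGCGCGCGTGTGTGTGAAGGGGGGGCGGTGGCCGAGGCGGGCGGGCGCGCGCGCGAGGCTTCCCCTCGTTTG
CHD8: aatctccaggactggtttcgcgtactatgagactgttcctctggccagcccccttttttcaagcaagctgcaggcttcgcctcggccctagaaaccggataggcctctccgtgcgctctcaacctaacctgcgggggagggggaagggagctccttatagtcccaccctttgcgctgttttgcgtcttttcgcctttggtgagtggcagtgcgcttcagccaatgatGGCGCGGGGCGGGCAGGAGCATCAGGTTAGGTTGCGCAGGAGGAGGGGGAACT
CHD4: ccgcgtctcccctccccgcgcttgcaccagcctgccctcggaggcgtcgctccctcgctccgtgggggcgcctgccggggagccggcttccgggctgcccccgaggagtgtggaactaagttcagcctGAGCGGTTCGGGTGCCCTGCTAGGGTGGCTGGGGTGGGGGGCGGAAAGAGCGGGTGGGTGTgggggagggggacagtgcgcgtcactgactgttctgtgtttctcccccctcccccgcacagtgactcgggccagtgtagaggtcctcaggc
CHD3: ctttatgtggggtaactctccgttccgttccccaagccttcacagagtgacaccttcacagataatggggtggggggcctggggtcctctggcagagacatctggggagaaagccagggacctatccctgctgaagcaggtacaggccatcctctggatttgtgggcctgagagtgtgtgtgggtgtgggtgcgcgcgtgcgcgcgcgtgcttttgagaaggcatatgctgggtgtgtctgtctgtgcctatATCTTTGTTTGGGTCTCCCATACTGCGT
In SMARCA4 the capitals join a MeRIP replicate 1 peak and a polyA m6A-ORL peak. In CHD8 they begin 23 nt before the start site at 21437275, which lies inside the span of the gene. Only the peak of MeRIP replicate 1, reaching 21437298, holds the bases before that site. The peak of MeRIP replicate 2 reaches only 21437268, so the 2 lists share only capitals after the start site. In CHD4 the capitals come from MeRIP replicate 2 alone and end 62 nt before the start site shown. That site too lies inside the span of its gene, as does the peak, which ranked at 92.0% of its list by score. The CHD3 capitals belong to the second block of a polyA m6A-ORL peak whose first block lies at the 5′ end of the gene. The letters GGAC, the core of the usual m6A context, were searched on the transcribed strand. They occur in all 4 windows shown, never wholly within the capitals, and in 63.3% of 35116 RefSeq windows of this length. Of the windows reached by a peak but not printed, that of ARID1B holds GGAC and that of ARID1A does not. The reverse complement GTCC also occurs in each of the 4 windows shown, against 63.4% of all windows.

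Most of the 10 genes carried more peaks than the median gene with a peak, by both methods. SMARCA2 did not in any list, and CHD4 did only in total-RNA m6A-ORL. In that list SMARCA4 and CHD3 did not, with 1 peak each. ARID2 and CHD1 had no peak in polyA m6A-ORL. In all, 38 and 37 peaks were assigned to the 10 genes in the MeRIP lists, 25 in total-RNA m6A-ORL and 34 in polyA m6A-ORL. The MeRIP mean was 37.5 ± 0.707 and the m6A-ORL mean 29.5 ± 6.36 (SD over 2 libraries each). The difference, m6A-ORL minus MeRIP, was -8.0 peaks. The exact two-sided permutation test over 3 splits gave p = 0.33, the smallest it allows, so this design cannot show a difference between the methods. At equal list length, keeping the 7661 best-scored peaks of each list, the order turned, and the difference was 6.0 peaks (exact permutation p = 1.0).

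Peaks of the 10 genes made up 0.183% of each MeRIP list, 0.227% of total-RNA m6A-ORL and 0.444% of polyA m6A-ORL. Among genes with a peak, the median number per gene was 5.0 and 4.0 for these genes in the MeRIP lists, against 2.0 and 2.0 over all genes. In m6A-ORL it was 2.0 and 4.0, against 1.0 and 1.0. By MeRIP 5 and 2 of the genes described here had 5 or more peaks, against 7.64% and 7.46% of all genes with a peak. In total-RNA m6A-ORL 1 did, against 2.32%, and in polyA m6A-ORL 4 did, against 3.83%. These genes are long, with genomic spans from 27960 to 434754 nt, and the relation of peak number to transcript length was not tested.

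A peak was listed for 8 and 9 of the 10 genes by MeRIP, for 9 in total-RNA m6A-ORL and for 8 in polyA m6A-ORL. Over all 13566 genes these shares were 72.2%, 71.0%, 53.1% and 33.1%. ARID1A, ARID1B, SMARCA4, CHD3, CHD7 and CHD8 had a peak in all 4 lists, which held for 15.8% of all genes. With only peaks scored at most 1e-05, 2 of the 10 genes did. This cut shortens every list, and the share of all genes under it is not given here. Both m6A-ORL lists held a peak of CHD4 as well, making 7 genes against 19.3% of all genes, and both MeRIP lists held peaks of 8, against 65.9%.

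**Figure D1:**
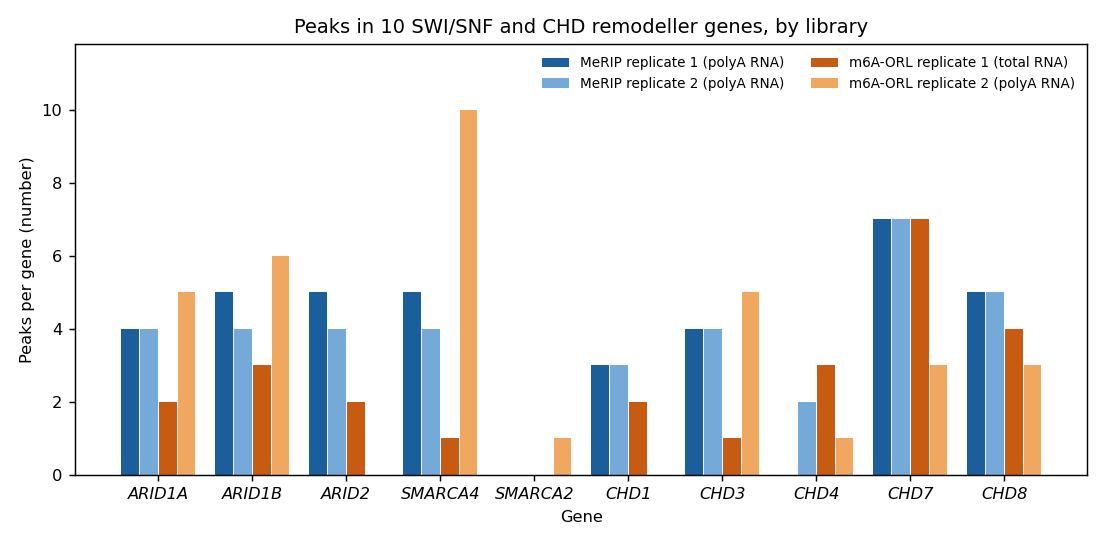
Number of peaks (y axis) in each of the 10 genes (x axis), with 1 bar per library: blue for MeRIP, orange for m6A-ORL. SMARCA4 reaches 10 peaks in polyA m6A-ORL and has 1 in total-RNA m6A-ORL, CHD7 has 7 in 3 lists, and SMARCA2 has a single peak in 1 list.

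Of the ARID subunits, ARID1A (ENSG00000117713; chromosome 1, 26696015 to 26782104, plus strand) had 4 MeRIP peaks per replicate, 2 in total-RNA m6A-ORL and 5 in polyA m6A-ORL. Both MeRIP lists gave the same 4 places. They were a peak of 1558 nt at the 5′ end, one at 41.0% of the span, one at 91.5% of it in replicate 1, and one of 1859 nt from 26779048 to 26780906. That last peak ranked at 1.52% and 1.63% of its list by the authors' score, where a low percentage is a strong peak. All m6A-ORL peaks of ARID1A, 7 of 7, lay inside or across a MeRIP peak. In total RNA both were in the 3′ peak, whereas in polyA RNA 2 lay at the 5′ end, 1 at the second place (26731242 to 26731391) and 2 in the 3′ peak.

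ARID1B (ENSG00000049618; chromosome 6, 156776026 to 157210779, on the plus strand), the paralog and alternative of ARID1A, had 5 and 4 MeRIP peaks, 3 in total-RNA m6A-ORL and 6 in polyA m6A-ORL. Its layout was like that of ARID1A, with a wide MeRIP peak at each end: 2100 nt at the 5′ end in both lists, and 1651 and 1650 nt at the 3′ end. Of 9 m6A-ORL peaks 8 met a MeRIP peak, and the exception was a peak of 61 nt at 157150873 to 157150933 in polyA RNA. The m6A-ORL libraries nevertheless did not meet each other in this gene: 0 of these 9 peaks overlapped the other m6A-ORL list, although both had peaks within the same 2 MeRIP regions. A MeRIP peak of 209 nt on the opposite strand (156777400 to 156778422, both lists) belongs to another ID, ENSG00000271551, and was not counted.

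ARID2 (ENSG00000189079; chromosome 12, 45729706 to 45908037, plus strand), the PBAF subunit, differed from both. It had 5 and 4 MeRIP peaks and 2 in total-RNA m6A-ORL, and none in polyA m6A-ORL. No peak lay near its 5′ end. MeRIP peaks gathered within 45851505 to 45852525, with their middles at 68.3% to 68.8% of the span, and within 45904951 to 45905401 close to the 3′ end. One m6A-ORL peak (45852165 to 45852495) met the first group. The other, of 271 nt at 45850396 to 45850666, lay upstream of it and met no MeRIP peak.

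The ATPase pair differed from each other. SMARCA4 (ENSG00000127616; chromosome 19, 10961030 to 11062273, plus strand) had 5 and 4 MeRIP peaks, 1 in total-RNA m6A-ORL and 10 in polyA m6A-ORL. By number of peaks, 99.7% of the genes with a peak in the polyA list had fewer. The 10 peaks ran from 10960945 to 11061818 and covered 2530 nt, against 725 and 574 nt by MeRIP. Several blocks, the form a peak takes across a splice junction, made up 7 of the 10. Over the whole polyA list 27.8% of peaks had more than 1 block, and over all 10 genes 10 of 34 did.

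Only 4 of those 10 peaks met a MeRIP peak of either list. The 4 places were the window at the start site, 11033778 to 11039553, 11041221 to 11041551 and 11059171 to 11061818. The peak of 331 nt at 11041221 ranked at 2.14% of the polyA list, the best rank among the 34 peaks of these genes there. The remaining 6 lay between 10987673 and 11058358 and met no MeRIP peak. In total RNA the single peak, 151 nt at 11061908 to 11062058, coincided with the MeRIP peaks closest to the 3′ end. At the start site, MeRIP replicate 1 had a peak of 91 nt (10960885 onwards) that lies before the RefSeq start and is assigned by its ID only, and replicate 2 had none.

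SMARCA2 (ENSG00000080503; chromosome 9, 2015347 to 2193620, plus strand) had no peak by MeRIP and none in total-RNA m6A-ORL. Its 1 peak, in polyA m6A-ORL, was 121 nt in 2 blocks between 2182215 and 2186188 and ranked at 73.8%. A strong peak in its span in total RNA (2162763 to 2162953, rank 2.93%) is on the opposite strand under another ID, ENSG00000222973, and was not counted.

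CHD1 (ENSG00000153922; chromosome 5, 98853985 to 98929007, minus strand), which binds methylated histone tails in active genes, had 3 MeRIP peaks per replicate and 2 in total-RNA m6A-ORL. Like ARID2 it had none in polyA m6A-ORL. The m6A-ORL peaks, at 98855844 to 98856054 and 98856264 to 98856504, met the MeRIP peaks near the 3′ end, the first of them sharing only 1 nt with the peak of MeRIP replicate 1. The second ranked at 8.22%, the best rank of any peak of these genes in the total-RNA list. The third MeRIP place was at the 5′ end, beginning 50 nt inside the RefSeq start, and had no counterpart in m6A-ORL.

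The NuRD ATPases differed in how far the methods coincided. CHD3 (ENSG00000170004; chromosome 17, 7884796 to 7912755, plus strand) had 4 MeRIP peaks per replicate, 1 in total-RNA m6A-ORL and 5 in polyA m6A-ORL. Its best-ranked m6A-ORL peak (4.09% of the polyA list) had 2 blocks, of which the first overlapped the MeRIP peaks at the 5′ end. Toward the 3′ end the methods listed different places. MeRIP had peaks within 7911683 to 7912131, whereas both m6A-ORL lists had one at 7910399 to 7910578. That is the only place among the 10 genes found in both m6A-ORL lists and in neither MeRIP list. Its peaks were weak by score, at 65.9% of the total-RNA and 95.7% of the polyA list.

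CHD4 (ENSG00000111642; chromosome 12, 6570082 to 6607379, minus strand) had 0 and 2 MeRIP peaks, 3 in total-RNA m6A-ORL and 1 in polyA m6A-ORL. No 2 peaks of different lists coincided except at the 3′ end. There the total-RNA peak (6570232 to 6570442) shared 1 nt with a peak of MeRIP replicate 2 (6570442 to 6570532). A second ID on the same strand, ENSG00000285238, holds 2 peaks in total RNA and 1 in polyA RNA within this span. Each of them shares bases with a CHD4 peak of the same library. In total RNA 72 nt were shared at 6599839 to 6599929 and 68 nt at 6606962 to 6607418. In polyA RNA all 121 nt of the only CHD4 peak, 6595349 to 6596044, were shared. The signal of 3 of the 4 m6A-ORL peaks of CHD4 therefore cannot be given to 1 ID, and its count among genes with a peak in both m6A-ORL lists rests on such a peak.

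CHD7 (ENSG00000171316; chromosome 8, 60678740 to 60868028, plus strand), the gene mutated in CHARGE syndrome, had the most peaks over all lists, 24. MeRIP and total-RNA m6A-ORL gave 7 each, and polyA m6A-ORL gave 3. The 7 MeRIP peaks fell in the same places in both lists. The widest, 1019 and 929 nt at 60865002 to 60866020, ranked at 0.694% and 0.764%, the best of any peak of these genes. Total-RNA m6A-ORL had peaks in 5 of the 7 places, and all 3 polyA peaks lay within these. CHD7 thus held 3 of the 7 merged regions to which all 4 lists contributed. In the region at 60852916 to 60854377, however, the peaks of the m6A-ORL lists did not overlap each other. Places of 1 method only were the 5′ end and 60781107 to 60794991 (MeRIP), and 60836262 to 60836885 (total-RNA m6A-ORL).

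Measured by the summed absolute difference in peak number over the 4 libraries, the named genes most like CHD7 were SEC16A (difference 1), SKIDA1 (2), ARHGAP35, BPTF and IGF1R (3 each). In all 9 named genes lay within 3, and ties were taken in alphabetical order. BPTF, a subunit of the remodeller NURF, had 8, 8, 7 and 4 peaks.

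CHD8 (ENSG00000100888; chromosome 14, 21385199 to 21456123, minus strand), a CHD7 relative and a regulator of Wnt target genes, had 5 MeRIP peaks per replicate, 4 in total-RNA m6A-ORL and 3 in polyA m6A-ORL. All 7 of its m6A-ORL peaks met a MeRIP peak. In each MeRIP list 3 peaks ranked between 4.29% and 7.53%, at 21385194 to 21385943, 21393219 to 21394070 and 21431177 to 21431717. Only the first, at the 3′ end, was shared by all 4 lists. At the second place polyA m6A-ORL had 2 peaks and total RNA none, and at the third total RNA had 2 and polyA none. The remaining MeRIP peaks ranked from 65.2% to 80.8%. One place was next to the internal start site shown above, in both lists, though only the replicate 1 peak held that site. The others were 21427860 to 21427950 in replicate 1 and 21429019 to 21429109 in replicate 2.

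MeRIP peaks covered more nucleotides of most of these genes than m6A-ORL peaks did. Over the 10 genes they covered 17691 and 17780 nt, against 5242 nt in total-RNA and 5910 nt in polyA m6A-ORL. ARID1A (4017 and 3987 nt against 870 and 693), ARID1B (4534 and 4442 against 693 and 786) and CHD7 (3751 and 3571 against 1147 and 363) gave most of that difference. Each MeRIP value was above each m6A-ORL value in 7 genes: ARID1A, ARID1B, ARID2, CHD1, CHD3, CHD7 and CHD8. The share of all genes with this order is not given here. The MeRIP lists as a whole hold more peaks, of larger median width, so the order is not particular to these genes on these values. SMARCA4 in polyA m6A-ORL (2530 nt) stood above both of its MeRIP values.

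**Figure D2:**
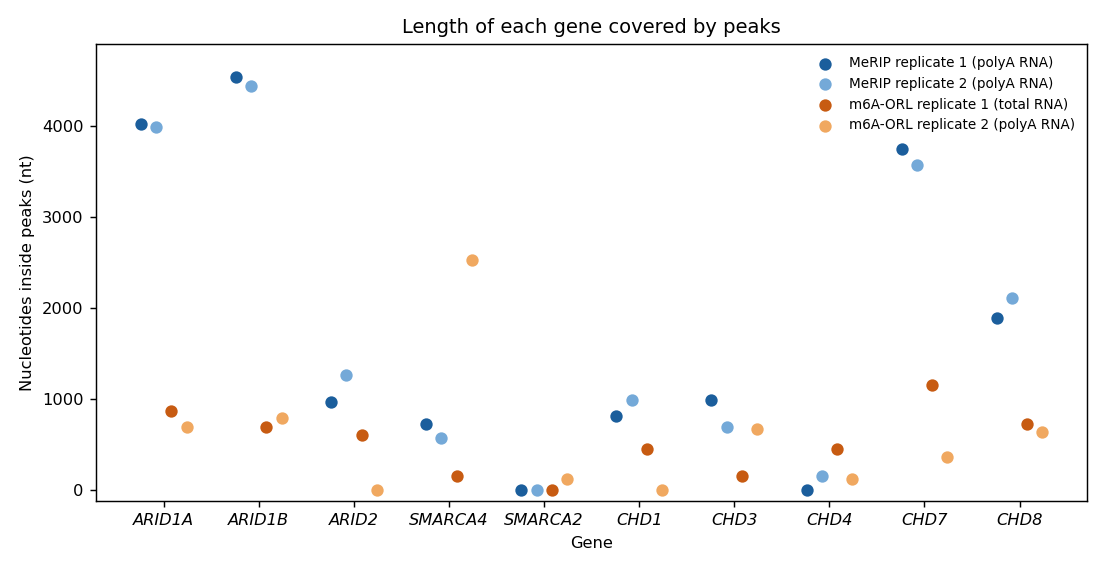
Summed length of the peaks of each gene in nucleotides (y axis), by gene (x axis), with 1 point per library: blue for MeRIP, orange for m6A-ORL. ARID1A, ARID1B and CHD7 have MeRIP points at 3571 nt or more and m6A-ORL points at 1147 nt or less, and SMARCA4 shows the reverse order for its polyA m6A-ORL point at 2530 nt.

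The median MeRIP peak of these genes was 315.5 and 301.0 nt wide, against 211.0 nt over each whole list. The median m6A-ORL peak was 180.0 nt in total RNA and 135.5 nt in polyA RNA, against 142.0 and 149.0 nt. Peaks of 1000 nt or more were 5 of 38 and 4 of 37 by MeRIP, in ARID1A, ARID1B and CHD7, against 4.83% and 4.89% over all peaks. No m6A-ORL peak of these genes was that wide (0 of 25 and 0 of 34, with upper exact 95% limits of 13.7% and 10.3%), against 0.200% and 0.248% over all. Peaks of more than 1 block were 10 of 38 and 11 of 37 by MeRIP, against 16.9% and 16.3%, and 2 of 25 in total-RNA m6A-ORL, against 9.88%. Most widths lay on steps of 30 nt (within 1 nt) in all 4 lists, 77.0% to 88.9% of peaks, so widths and overlaps are resolved no finer than that.

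By the authors' score the MeRIP peaks of these genes ranked well within their lists, with medians of 30.8% and 36.0%, and 11 peaks of each list were in the best 10%. The m6A-ORL peaks lay near the middle, with medians of 56.3% and 49.7%, and 1 and 6 were in the best 10%. Ranks from lists of different length are descriptions of each list and are not compared.

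Along the genes, peaks gathered at the 3′ end of the span. The final 10% held 16 of 38 and 17 of 37 MeRIP peaks, 13 of 25 in total-RNA m6A-ORL and 11 of 34 in polyA m6A-ORL. Over all named genes these shares were 36.9%, 36.8%, 32.8% and 28.4%, and each falls within the exact 95% binomial interval of the share for the 10 genes. The first 10% held 6, 6, 2 and 7 peaks, against 14.7%, 15.1%, 15.6% and 18.8% over all named genes. Spans include introns and exon annotation was not used here, so the position of a peak and the position of the exons cannot be told apart.

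**Figure D3:**
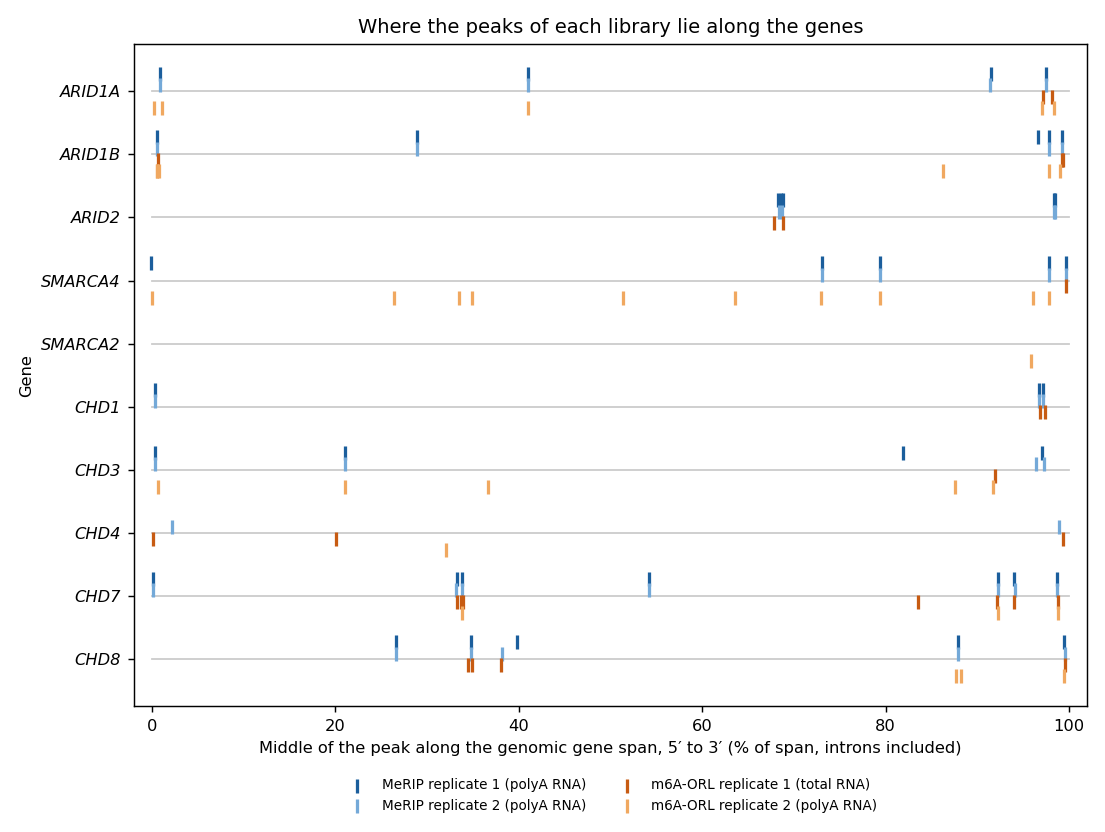
Middle of each peak along the genomic span of its gene, from the 5′ end (0%) to the 3′ end (100%, x axis), for the 10 genes (y axis), with 1 row of ticks per library: blue for MeRIP, orange for m6A-ORL. MeRIP ticks of both replicates coincide in most places, while the ticks of polyA m6A-ORL spread along SMARCA4, where MeRIP has few.

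Most MeRIP peaks were found by both MeRIP lists, and fewer m6A-ORL peaks by both m6A-ORL lists. The MeRIP libraries are both of polyA RNA, whereas the m6A-ORL libraries differ in RNA label and their lists are shorter. Method, RNA type and list length therefore cannot be told apart in this contrast. Of the MeRIP peaks of these genes, 34 of 38 in replicate 1 and 34 of 37 in replicate 2 shared 1 nt or more, on 1 strand, with the other replicate, against 83.6% and 86.0% of all peaks. Among genes listed by both replicates these were 34 of 38 and 34 of 35, against 87.4% and 89.3%. Between the m6A-ORL lists 6 of 25 total-RNA peaks (24.0%, exact 95% interval 9.36 to 45.1) and 6 of 34 polyA peaks (17.6%, 6.76 to 34.5) overlapped, against 13.8% and 19.6%. Within genes with peaks in both lists they were 6 of 21 and 6 of 33, against 31.3% and 30.7%, both inside the exact intervals (11.3 to 52.2 and 6.98 to 35.5). The overlap between the m6A-ORL lists in these genes was therefore near the background. The intervals here cover counting error over peaks only, and peaks of 1 gene are not independent. SMARCA4 alone gave 10 of the polyA peaks and none of the overlaps.

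Across methods the overlap was higher in these genes than over all peaks of each list. Either MeRIP list overlapped 20 of 25 total-RNA m6A-ORL peaks (80.0%, exact 95% interval 59.3 to 93.2) against 54.7% of all, and 22 of 34 polyA peaks (64.7%, 46.5 to 80.3) against 47.8%. In the other direction either m6A-ORL list overlapped 24 of 38 and 25 of 37 MeRIP peaks (63.2% and 67.6%, exact 95% intervals 46.0 to 78.2 and 50.2 to 82.0), against 33.5% and 33.0%. The value over all peaks lay outside the interval for both MeRIP lists and for total-RNA m6A-ORL, and inside it for polyA m6A-ORL. Here and in the next paragraph the intervals take peaks as independent, which peaks of 1 gene are not, so they are no test. The MeRIP lists share most of their peaks in these genes, so their values are not separate observations. Taken list by list, MeRIP replicates 1 and 2 overlapped 18 and 20 of the 25 total-RNA peaks, against 52.9% and 50.9%. They overlapped 22 and 21 of the 34 polyA peaks, against 45.8% and 44.1%. Total-RNA m6A-ORL overlapped 14 of 38 and 16 of 37 MeRIP peaks, against 25.3% and 25.0%, and polyA m6A-ORL 17 of 38 and 16 of 37, against 14.8% and 14.5%. With at least 50% of the peak required, the share of MeRIP peaks met by m6A-ORL was 29.3% in place of 65.3% over both lists, and it was 44.0% without the total-RNA and 40.0% without the polyA library.

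Counting only genes with peaks in both lists changed this comparison for both m6A-ORL libraries. Total-RNA m6A-ORL then overlapped 36.8% and 43.2% of the MeRIP peaks of these genes, below the 45.1% and 45.3% over all, which lie within the exact intervals (21.8 to 54.0 and 27.1 to 60.5). For polyA m6A-ORL the shares were 56.7% (37.4 to 74.5) and 53.3% (34.3 to 71.7), against 35.1% and 34.7%, a smaller gap than over all genes. The interval of replicate 1 does not hold the value over all peaks, and that of replicate 2 does. In the same genes MeRIP overlapped 18 of 22 and 20 of 25 total-RNA peaks, against 71.1% and 69.6%, and 22 of 32 and 21 of 33 polyA peaks, against 56.4% and 55.4%. All of these backgrounds lay inside the exact intervals, the lowest of which began at 45.1%.

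**Figure D4:**
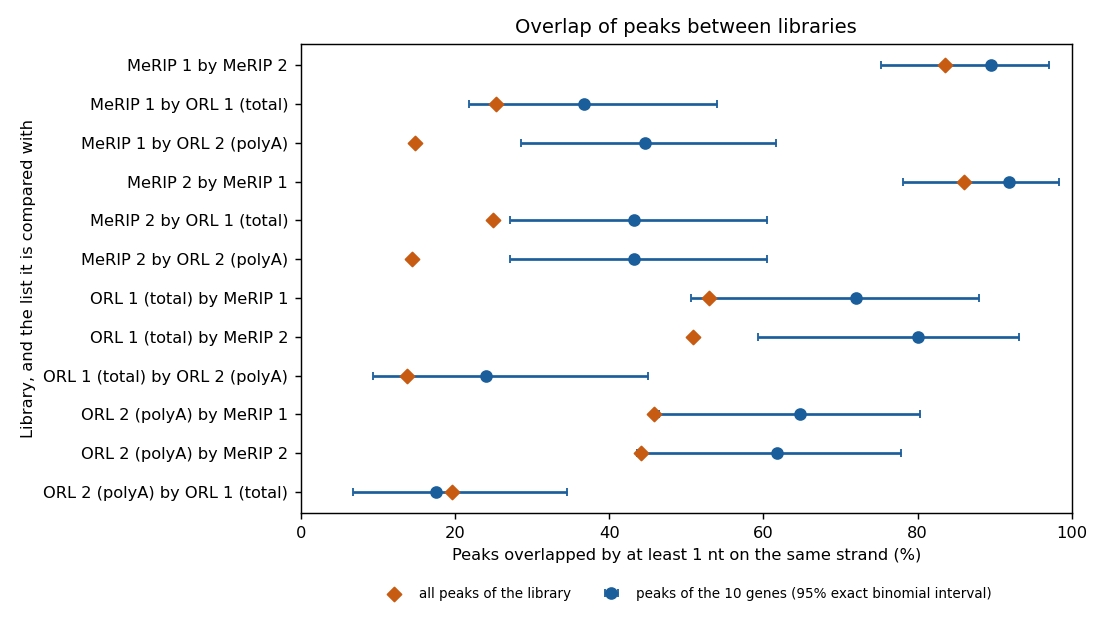
Share of the peaks of 1 library that are overlapped by another list (x axis, %), for each ordered pair of libraries (y axis). Circles with bars are the peaks of the 10 genes with exact 95% binomial intervals, and diamonds are all peaks of the library. The pairs of MeRIP lists lie at 89.5% and 91.9%, and the pairs of m6A-ORL lists at 24.0% and 17.6%.

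Merging overlapping blocks of all lists gave 56 regions in the 10 genes. Peaks of both methods contributed to 26 of them (46.4%, against 22.2% of 31199 regions over all genes), MeRIP alone to 14 (25.0% against 50.3%) and m6A-ORL alone to 16 (28.6% against 27.5%). The values over all genes include regions of genes listed by only 1 method. A restriction to genes listed by both, which changed the overlap shares above, was not made for regions. All 4 lists contributed to 7 regions (12.5% against 4.18%), of which CHD7 held 3, ARID1B 2, and ARID1A and CHD8 1 each. Such a region need not hold a base common to all lists. In both regions of ARID1B the m6A-ORL lists shared none. All but 1 of the 16 regions of m6A-ORL alone came from a single library, 11 from polyA RNA (19.6% of the 56, against 11.7% of all regions) and 4 from total RNA (7.14% against 14.8%). Over all genes 8251 of 8593 regions of m6A-ORL alone also came from 1 library. SMARCA4 held 6 of the 16.

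The m6A-ORL libraries differed in which genes had more peaks, with 1 library of each RNA label and no test. The total-RNA library had more peaks in 5 genes, ARID2, CHD1, CHD4, CHD7 and CHD8, against 39.4% of all genes. The polyA library had more in the other 5, ARID1A, ARID1B, SMARCA4, SMARCA2 and CHD3, against 19.3% of all genes. A peak in total RNA without one in polyA RNA was listed for 2 of the 10 genes (ARID2 and CHD1), against 33.8% of all genes, and the reverse for 1 (SMARCA2), against 13.8%.

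Of 52 other remodeller genes, 37 had a named peak, and 12 of these (32.4%) had one in all 4 lists, against 15.8% of all genes. These were the SWI/SNF subunits BCL7B and BICRA, the NuRD subunits HDAC1, MBD3 and GATAD2A, the ISWI-type subunits and partners BAZ1B, BAZ2A, BPTF, RSF1 and CECR2, and SRCAP and EP400. SRCAP, the motor that deposits the histone variant H2A.Z, had 7, 4, 7 and 12 peaks in MeRIP replicates 1 and 2, total-RNA and polyA m6A-ORL, and MBD3 had 7, 6, 2 and 7. No gene of the list had more in the polyA library than SRCAP.

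The other SWI/SNF subunit genes carried fewer peaks per gene. Of 23 further SWI/SNF genes 15 had a named peak, with medians of 1.0 and 2.0 in the MeRIP lists and 0.0 and 1.0 in m6A-ORL, where the medians of the 10 genes described here were 4.5, 4.0, 2.0 and 3.0. SMARCD3, BRD9, DPF1 and DPF3 had peaks in both MeRIP lists and none by m6A-ORL, as the only ones of the 37 named genes, against 25.1% of all genes. The reverse held among the 37 for the deacetylase gene HDAC2 alone, with 1 peak in each m6A-ORL list, against 2.68% of all genes. Of the 15 genes of the wider list without a name, 6 had peaks of some ID in their span, so they cannot be called free of peaks.

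CHD2, CHD6 and CHD9, chosen after their values were seen, had 1, 3 and 5 peaks in total-RNA m6A-ORL and none in the polyA library, as CHD1 did. By MeRIP they had 1 and 1, 4 and 4, and 4 and 2. Among the 37 named genes, 8 had m6A-ORL peaks in the total-RNA library only (21.6%, against 33.8% of all genes) and 12 in the polyA library only (32.4%, against 13.8%).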

How the data were processed

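Peak lists of 4 captured libraries were used, 2 per method. Per the submitters' processing notes, the tools were Trim Galore, STAR and HOMER and the build hg38; what each tool did is not stated. The peak caller, threshold and input library, not given in the sources used here, decide which peaks are listed. The deposited score of each peak, between 0 and 0.0081, behaves as a p-value (p or q is not stated) and served only to rank or filter within a list. Lines repeated exactly (4, 3, 2 and 1 per list) were counted once. The members and lists were chosen with earlier results of these data known.

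Peaks were assigned by the Ensembl ID in the name column. An ID took the symbol of the only RefSeq gene (GRCh38.p14) whose span and, where known, strand held at least 90% of its peak bases, a single protein-coding gene being preferred. This named 11530 of 13566 IDs (85.0%). ARID2 and CHD7 have no row in the promoter table, and their strand was taken from their peaks. Of the wider remodeller list the genes with a peak in all 4 lists were named, then those with peaks in both libraries of 1 method and none of the other. Overlap means at least 1 nt of shared block on the same strand. Overlap counts and the exact permutation test were tested on simulated data. Intervals are exact (Clopper-Pearson) 95% binomial. Python 3.11.15, pandas 2.3.3 and scipy 1.17.1 were used. Sequence under the peaks needs a genome and was not analysed here.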

Additional observations from a re-analysis of the deposited data

How the results depend on the processing

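With only peaks scored at most 1e-05, 2 genes in place of 6 had a peak in all 4 lists. The same change over all genes is not given here. At that score, MeRIP peaks overlapped by the other MeRIP list rose from 90.7% to 96.6%, m6A-ORL by m6A-ORL went from 20.3% to 8.0%, and MeRIP by either m6A-ORL list from 65.3% to 46.6%. The difference in total peaks, m6A-ORL minus MeRIP, went from -8.0 to -16.5. Median widths (308 nt for MeRIP, 158 nt for m6A-ORL) became 398 and 241 nt. At equal list lengths the difference in total peaks turned to 6.0, the MeRIP median width was 526 nt, m6A-ORL peaks met by MeRIP went from 71.2% to 53.7%, and MeRIP by m6A-ORL was 81.0%. Requiring 50% of a peak gave 10.2% between the m6A-ORL lists and 29.3% for MeRIP by m6A-ORL. Leaving out 1 library gave 40.0% to 67.6% for MeRIP by m6A-ORL (40.0% without the polyA and 44.0% without the total-RNA m6A-ORL library), and a difference in total peaks from -12.5 to -3.5. Counting whole spans made the MeRIP median width 406 nt, and leaving out SMARCA4, chosen after the data were seen, made it 361 nt. With the replicate block the difference stayed -8.0 peaks (exact sign-flip permutation p = 0.5, the smallest 2 pairs allow), but the libraries share only a number. The cause of these changes was not tested. Of the values under alternatives, 49 stayed within the limits set for no change, 15 moved and 1 changed sign. Those limits are wide for the difference in total peaks, where -16.5 and -3.5 counted as no change from -8.0. The 49 is therefore not a measure of how stable the results are. The share of peaks holding GGAC was not run.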
